A study of Mus musculus with 9 samples.

Results

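Sclerostin and FGF23 are signals that osteocytes send out of bone, and their genes are described here with 5 others known from osteocytes. The 7 genes are Sost, Dmp1, Mepe, Fgf23, Phex, Fbln7 and Pdpn, taken by symbol from a table of 22183 genes, and each symbol matched 1 row. All 7 were among the 14211 genes tested. Tibiae of mice were profiled by sequencing of polyadenylated RNA in 9 libraries. The 3 Ti+I-OG libraries came from tibiae that received titanium particles and I-OG, a hydrogel carrying the muscle hormone irisin, and were analysed after 5 weeks of treatment (when the Ti and naive tibiae were taken is not stated). The 3 Ti libraries came from tibiae that received titanium particles, a model of the wear debris that loosens implants, and the 3 naive libraries from untreated tibiae. No group here received a sham procedure, or a hydrogel without irisin, so particles and procedure, or irisin and its carrier, cannot be told apart. The labels give no strain, age or sex and do not say that the samples of a group were separate animals, so p-values reflect only how far these samples spread, and that spread may be technical.

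Osteocytes are osteoblast descendants that have become buried in the matrix they made. They restrain bone formation through sclerostin, which blocks the Wnt co-receptors LRP5 and LRP6 with the help of LRP4, and they signal to the kidney through FGF23, a hormone that promotes phosphate loss. DMP1 and PHEX are needed to keep FGF23 low: loss of either gene raises FGF23 and causes rickets with low blood phosphate in mice and humans. As tibia was sequenced whole, fewer cells of a type and less RNA per cell cannot be told apart.

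The sequences before the RefSeq starts of the 7 genes are shown because transcript levels are what the data measure and because 5 of the genes shared a short word there. Each line gives the 100 bases upstream of a start, 5′ to 3′ on the strand of the gene, from RefSeq on GRCm38.p6. Capitals mark TTTAAA, a palindrome similar to a TATA box that reads the same on both strands. Dmp1 has 2 listed starts, and the downstream one is shown.
Sost, chr11:101967016-101967115, minus strand: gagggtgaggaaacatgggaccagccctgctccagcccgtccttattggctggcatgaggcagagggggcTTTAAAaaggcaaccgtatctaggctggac
Dmp1, chr5:104202517-104202616, plus strand: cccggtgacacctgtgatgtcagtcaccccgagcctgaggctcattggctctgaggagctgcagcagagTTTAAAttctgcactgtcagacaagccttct
Fgf23, chr6:127072802-127072901, plus strand: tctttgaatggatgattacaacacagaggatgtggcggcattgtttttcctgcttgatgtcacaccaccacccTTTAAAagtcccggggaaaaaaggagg
Phex, chrX:157415287-157415386, minus strand: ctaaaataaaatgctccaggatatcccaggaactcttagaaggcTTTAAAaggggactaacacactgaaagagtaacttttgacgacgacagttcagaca
Pdpn, chr4:143299565-143299664, minus strand: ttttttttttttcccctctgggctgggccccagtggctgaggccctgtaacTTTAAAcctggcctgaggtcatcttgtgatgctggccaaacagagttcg
Mepe, chr5:104325229-104325328, plus strand: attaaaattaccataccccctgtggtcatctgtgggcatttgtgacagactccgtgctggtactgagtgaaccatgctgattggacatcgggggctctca
Fbln7, chr2:128863832-128863931, plus strand: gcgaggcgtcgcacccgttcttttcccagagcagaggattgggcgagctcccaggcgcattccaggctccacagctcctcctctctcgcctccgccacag

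TTTAAA began 30 bases before the start of Sost, 31 before the shown start of Dmp1 and 27 before that of Fgf23. In Pdpn it began 49 bases upstream and in Phex 56. Mepe, Fbln7 and the other start of Dmp1 did not have it in this window. Of all 32851 RefSeq windows of the same length, 4.39% held the word. It was looked for after these sequences had been read, so the count is a description. The genes with the word included the 1 that was lower and 4 of the 6 that were higher in Ti than in naive tibiae. The word TGTGGT, a core site of RUNX factors, was searched on both strands; the Mepe window held it, against 5.61% of all windows.

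Per transcript length, Mepe and Dmp1 were the most abundant of the 7 and Fgf23 among the least. In FPKM (fragments per kilobase of transcript, scaled to depth), Ti+I-OG tibiae had means of 27.3 for Mepe, 26.7 for Dmp1, 9.48 for Phex, 8.08 for Sost, 2.34 for Fbln7, 2.18 for Pdpn and 0.109 for Fgf23. Ti tibiae had the same order, with mean FPKM of 43.5 for Mepe, 38.3 for Dmp1, 16.9 for Phex, 10.4 for Sost, 3.86 for Fbln7, 2.61 for Pdpn and 0.104 for Fgf23. In both groups the libraries overlapped within the pairs Mepe and Dmp1, Phex and Sost, and Fbln7 and Pdpn, so the order inside these pairs is not resolved. In naive tibiae Dmp1 led with 19.0 FPKM and Mepe followed with 14.6, without overlap. Phex was at 5.22 FPKM and Sost at 4.42, and then came Pdpn at 0.736, Fgf23 at 0.676 and Fbln7 at 0.628. The libraries of Phex and Sost overlapped, as did those of Pdpn and Fgf23 and of Fgf23 and Fbln7. The Fgf23 libraries thus overlapped those of Pdpn and Fbln7 in naive tibiae and had the lowest mean of the 7 genes in the other groups.

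**Figure D1:**
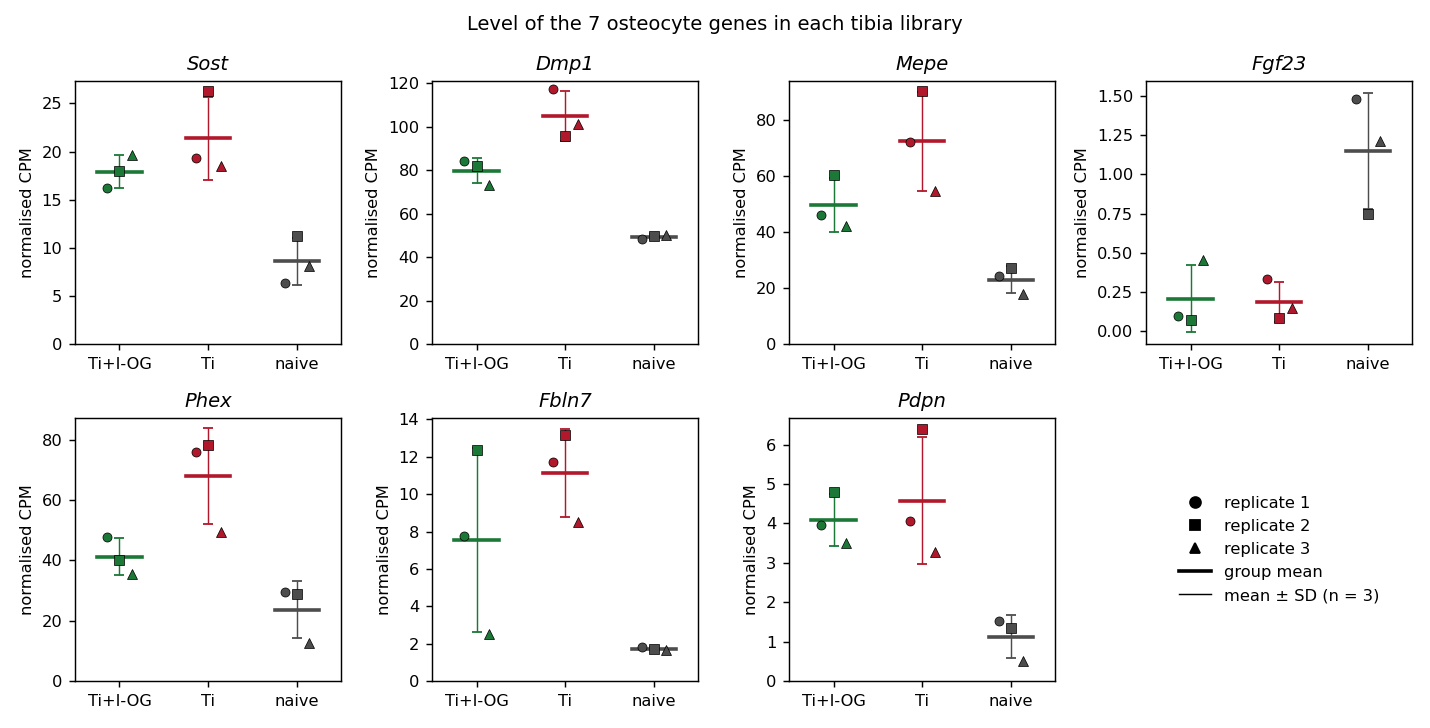
Normalised CPM (counts scaled to library size, linear axes) of the 7 genes in each library, with Ti+I-OG, Ti and naive from left to right; points are libraries (symbols give the replicate), thick lines group means and error bars SD. Sost, Dmp1, Mepe, Phex, Fbln7 and Pdpn lie higher in all Ti libraries than in all naive ones, and Fgf23 lies lower.

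The titanium comparison split the 7 genes. In Ti against naive tibiae 6 genes rose, between 2.12-fold for Dmp1 and 6.42-fold for Fbln7, and Fgf23 fell. All 7 passed edgeR's quasi-likelihood test at an adjusted p under 0.05; across all tested genes 4.05% passed as higher and 2.39% as lower. No Ti library overlapped a naive one for any of the 7, whereas 14.3% of all tested genes were higher without overlap and 12.9% lower. The median log2 fold change was 1.52 over the 7 genes and 0.01 over all tested genes. In the F test over the 3 groups all 7 passed too (adjusted p = 0.00385 for Dmp1 to 0.0464 for Fgf23), against 5.77% of tested genes. Fgf23 passed the filter on low counts only through the naive libraries, so its place among the tested genes was not independent of its difference. The 7 genes were chosen with earlier results of these data known, so their counts beside the shares of all tested genes are a description. The I-OG comparison called none of the 7 genes: edgeR, DESeq2, limma-voom and limma on log2(FPKM + 1) each gave 0 at an adjusted p under 0.05. Of all tested genes 0.0422% passed there.

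Sost encodes sclerostin, the Wnt antagonist that is the target of the osteoporosis antibody romosozumab. Sost was at 16.2, 18.0 and 19.6 normalised CPM in Ti+I-OG tibiae, at 19.4, 26.3 and 18.5 CPM in Ti tibiae and at 6.38, 11.3 and 8.17 CPM in naive tibiae (replicates 1, 2 and 3). Every library of either treated group exceeded every naive library, and the treated groups overlapped. Sost rose in Ti by a log2 fold change of 1.32 (adjusted p = 0.0113, SE 0.220). It also rose in Ti+I-OG against naive, by 1.06 on the log2 scale (adjusted p = 0.0247, SE 0.220). Between Ti+I-OG and Ti the log2 fold change was -0.26 (adjusted p = 0.766, SE 0.215). Without Ti replicate 2, the highest library, the Ti against naive difference no longer passed (adjusted p = 0.0514).

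The next pair belongs to the SIBLING family, acidic phosphoproteins of bone and tooth matrix whose genes lie side by side on mouse chromosome 5, in the order Dspp, Dmp1, Ibsp, Mepe, Spp1. Dmp1, a nucleator and regulator of mineral made by osteocytes, was at 84.0, 81.8 and 73.1 CPM in Ti+I-OG tibiae, at 117, 95.6 and 101 CPM in Ti tibiae and at 48.1, 49.6 and 50.3 CPM in naive tibiae. The 3 groups were fully separated, with Ti highest and Ti+I-OG between Ti and naive. Dmp1 rose in Ti by a log2 fold change of 1.09 (adjusted p = 0.00213, SE 0.122), and passed in all 9 fits that each left out 1 library. Dmp1 also rose in Ti+I-OG against naive (log2 fold change 0.69, SE 0.122, adjusted p = 0.0152). Against Ti, Dmp1 in Ti+I-OG had a log2 fold change of -0.40 (SE 0.121), with an unadjusted p of 0.00693 and an adjusted p of 0.628.

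Mepe encodes a matrix phosphoglycoprotein whose ASARM peptide inhibits mineralisation. Mepe was at 46.3, 60.4 and 42.3 CPM in Ti+I-OG tibiae, at 72.2, 90.4 and 54.8 CPM in Ti tibiae and at 24.3, 27.2 and 17.8 CPM in naive tibiae. The treated groups overlapped each other but not the naive group. Mepe rose in Ti by a log2 fold change of 1.65 (adjusted p = 0.00325, SE 0.218), again in all 9 leave-one-out fits, and in Ti+I-OG against naive by 1.10 (adjusted p = 0.0206, SE 0.216). Between Ti+I-OG and Ti the log2 fold change of Mepe was -0.55 (SE 0.212, unadjusted p = 0.0249, adjusted p = 0.628).

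Phex encodes a membrane peptidase of osteoblasts and osteocytes that cleaves ASARM peptides; its loss causes X-linked hypophosphataemia. Phex was at 47.8, 40.2 and 35.6 CPM in Ti+I-OG tibiae, at 75.9, 78.2 and 49.5 CPM in Ti tibiae and at 29.5, 28.7 and 12.7 CPM in naive tibiae. As for Dmp1, the 3 groups did not overlap, although naive replicate 3 lay far below the other naive libraries. Phex rose in Ti by a log2 fold change of 1.52 (adjusted p = 0.0167, SE 0.287); without Ti replicate 1 or Ti replicate 2 this was lost, with adjusted p up to 0.0801. In Ti+I-OG the log2 fold change was 0.80 against naive (adjusted p = 0.0887, SE 0.284) and -0.72 against Ti (SE 0.281, unadjusted p = 0.0257, adjusted p = 0.628), so neither passed; the contrast with naive did with DESeq2 (adjusted p = 0.0448). Dmp1 and Phex were thus the members that were lower in Ti+I-OG than in Ti without overlap, 2 of 7, against 6.71% of all tested genes.

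Fgf23 went the other way. Fgf23 was at 0.0992, 0.0687 and 0.453 CPM in Ti+I-OG tibiae, at 0.330, 0.0825 and 0.147 CPM in Ti tibiae and at 1.48, 0.747 and 1.22 CPM in naive tibiae. These levels rest on 2, 1 and 8 estimated counts in Ti+I-OG, 7, 2 and 3 in Ti and 39, 16 and 29 in naive libraries. The treated libraries all lay below the naive ones, and 4 of the 6 had at most 3 counts. Pooled over libraries and scaled to depth, 12 counts in Ti against 84 in naive gave a ratio of 0.155 (95% interval 0.0772 to 0.286), and 11 counts in Ti+I-OG against 84 gave 0.179 (0.0861 to 0.337). Those intervals cover counting error only.

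In edgeR's fit Fgf23 fell in Ti by 2.61 on the log2 scale (adjusted p = 0.0447, SE 0.682). The call was a narrow one, since it held in 2 of the 9 fits that each left out 1 library, and the adjusted p reached 0.189; every such fit kept the direction. Against naive, Ti+I-OG had a log2 fold change of -2.43 that missed the threshold (SE 0.693, unadjusted p = 0.00452, adjusted p = 0.0517). It passed with DESeq2 (adjusted p = 0.0232) and limma-voom (adjusted p = 0.0473). In edgeR it did not pass without a filter on low counts (adjusted p = 0.0600) or with only the 2 groups (adjusted p = 0.0594). With a transcript length correction it did not pass either (adjusted p = 0.0754). It passed in 2 of 9 leave-one-out fits, with adjusted p up to 0.187. Between Ti+I-OG and Ti the log2 fold change was 0.18, with a 95% interval of -1.61 to 1.97 (adjusted p = 0.963), so a difference of several fold in either direction was not detectable at this depth.

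Fbln7, which encodes fibulin-7, an adhesion protein of the extracellular matrix, was at 7.73, 12.4 and 2.49 CPM in Ti+I-OG tibiae, at 11.7, 13.2 and 8.52 CPM in Ti tibiae and at 1.82, 1.73 and 1.63 CPM in naive tibiae. The naive libraries lay close together and below all others, while Ti+I-OG replicate 3 was the lowest treated library. Fbln7 rose in Ti by a log2 fold change of 2.68 (adjusted p = 0.0114, SE 0.449), and in Ti+I-OG against naive by 2.11 (adjusted p = 0.0267, SE 0.449). Without Ti replicate 1 the titanium difference did not pass (adjusted p = 0.0563), and the contrast of Ti+I-OG with naive did not with limma-voom (adjusted p = 0.0710) or limma on log2(FPKM + 1) (adjusted p = 0.0541). Between Ti+I-OG and Ti it was -0.57 (adjusted p = 0.720, SE 0.410).

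Pdpn encodes podoplanin, a mucin-like glycoprotein known as E11 in bone, where it marks young osteocytes and takes part in dendrite formation; lymphatic endothelium makes it too. Pdpn was at 3.97, 4.81 and 3.51 CPM in Ti+I-OG tibiae, at 4.06, 6.39 and 3.28 CPM in Ti tibiae and at 1.52, 1.35 and 0.503 CPM in naive tibiae. The treated groups covered the same range, above the naive one. Pdpn rose in Ti by a log2 fold change of 2.02 (adjusted p = 0.0184, SE 0.398) and in Ti+I-OG against naive by 1.85 (adjusted p = 0.0273, SE 0.401). Without Ti replicate 1 or Ti replicate 2 the titanium difference was lost, with adjusted p up to 0.0863. Between Ti+I-OG and Ti it was -0.17 (adjusted p = 0.925, SE 0.370).

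**Figure D2:**
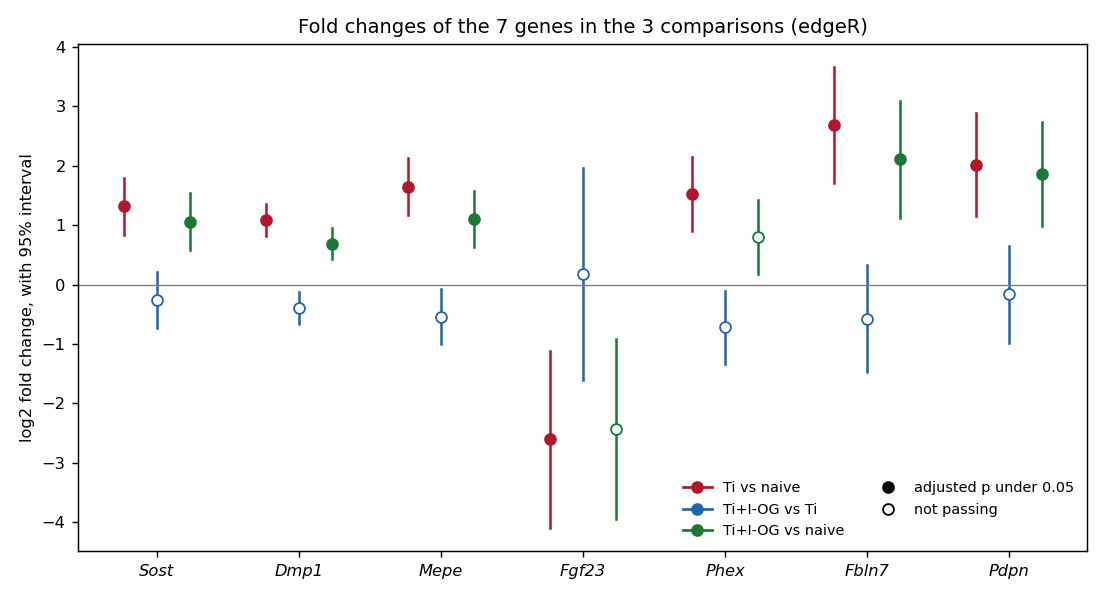
Log2 fold changes of the 7 genes in the 3 comparisons from edgeR's fit, with 95% intervals as bars and filled markers where the adjusted p was under 0.05. Against naive, 6 genes lie above 0 in both treated groups and Fgf23 lies below; between Ti+I-OG and Ti no gene passed.

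In Ti+I-OG against naive tibiae 5 of the 7 genes rose (Sost, Dmp1, Mepe, Fbln7 and Pdpn), where 3.84% of all tested genes passed as higher and 4.43% as lower. In that comparison 6 genes were higher without overlap and Fgf23 was lower without overlap, against 18.7% and 16.9% of tested genes. As Fgf23 was tested only because of its naive libraries, its place among the tested genes depended on its difference in that comparison too. The median log2 fold change over the 7 genes was 1.06 there and -0.40 between Ti+I-OG and Ti, where the log2 fold changes of all but Fgf23 were negative and 3 had an unadjusted p under 0.05. The medians over all tested genes were 0.03 and -0.00. These comparisons share samples, the naive libraries with the titanium comparison and the Ti libraries with the other, so they are not separate evidence. Leaving out 1 library changed the number of calls, and whether it rose or fell depended on the library. Without naive replicate 2, 6 of the 7 and 2119 of all genes passed in Ti+I-OG against naive. Without Ti replicate 3, 6 of the 7 and 1999 of all genes passed in Ti against naive. In Ti+I-OG against naive 0 of the 7 passed without Ti+I-OG replicate 1 (156 of all genes, against 1174 with every library), 0 without Ti+I-OG replicate 2 (59 of all genes) and 1 without naive replicate 3 (187 of all genes). Over the 9 such fits the log2 fold change of Dmp1 was 0.65 to 0.74 there and that of Mepe 0.92 to 1.23. In Ti against naive 3 of the 7 passed without Ti replicate 1 (100 of all genes, against 914 with every library) and 3 without Ti replicate 2 (105 of all genes), and the log2 fold change of Phex was 1.20 to 1.72 over the 9 fits.

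RNA of 3 bone matrix genes rose in Ti against naive: Col1a1 (log2 fold change 1.46, adjusted p = 0.0417), Col1a2 (1.54, adjusted p = 0.0239) and Sparc (1.57, adjusted p = 0.0228). The Col1a1 call held in 2 of 9 leave-one-out fits and the other two in 7 each. In Ti+I-OG none of the 3 passed against naive (adjusted p = 0.0699 to 0.132) or against Ti (adjusted p = 0.658 to 0.693). Col1a1, a type I collagen chain, was at 915, 1321 and 2148 CPM in Ti+I-OG tibiae, at 2018, 1364 and 3106 CPM in Ti tibiae and at 977, 904 and 477 CPM in naive tibiae, with naive replicate 3 lowest of all and Ti+I-OG replicate 1 inside the naive range. Each member was also expressed relative to the mean log2 level of Col1a1, Col1a2 and Sparc (osteonectin) in its own library. By this measure the Ti minus naive difference was -0.33 for Sost, -0.54 for Dmp1, 0.01 for Mepe, -0.04 for Phex and 0.05 for Pdpn on the log2 scale, with overlapping libraries and exact permutation p-values of 0.4 to 1. For Fbln7 it was 0.75 (exact permutation p = 0.2).

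Relative to bone matrix, the Fgf23 libraries of the treated groups lay apart from the naive ones. Its log2 ratio averaged -12.02 ± 0.28 in Ti and -9.16 ± 0.88 in naive tibiae (SD, n = 3 each), a difference of -2.86 without overlap (two-sided exact permutation p = 0.1, the smallest that 3 against 3 libraries allow). In Ti+I-OG it averaged -11.42 ± 0.32, which was -2.26 against naive, again without overlap (exact permutation p = 0.1). Fgf23 alone already lay below all naive libraries in both treated groups. The mean matrix level of every treated library lay above that of every naive one. The lack of overlap and the permutation p-values were therefore fixed before the ratios were taken. Each difference also holds the rise of the matrix genes beside the fall of Fgf23. With an offset of 0.1 CPM in place of 0.5 CPM before taking logs, the Ti minus naive difference was -3.78. Over the 39 ratio tests no adjusted p was under 0.557. Without naive replicate 3, whose matrix RNA was lowest, the Ti minus naive differences were 0.09 for Sost, -0.09 for Dmp1, 0.27 for Mepe, 0.00 for Phex, 0.17 for Pdpn, 1.16 for Fbln7 and -2.39 for Fgf23. Over all 6 ways to leave out a Ti or naive library the difference was -0.75 (without naive replicate 1) to 0.09 for Sost, -0.79 (without naive replicate 1) to -0.09 for Dmp1, -0.29 (without Ti replicate 2) to 0.30 (without Ti replicate 3) for Mepe and -0.28 (without Ti replicate 2) to 0.28 (without Ti replicate 3) for Phex. It was -0.32 (without Ti replicate 2) to 0.35 (without Ti replicate 3) for Pdpn, 0.50 (without Ti replicate 2) to 1.16 for Fbln7 and -3.25 (without naive replicate 2) to -2.39 for Fgf23. The part that the amount of bone tissue in a sample plays in the members' differences was not tested.

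**Figure D3:**
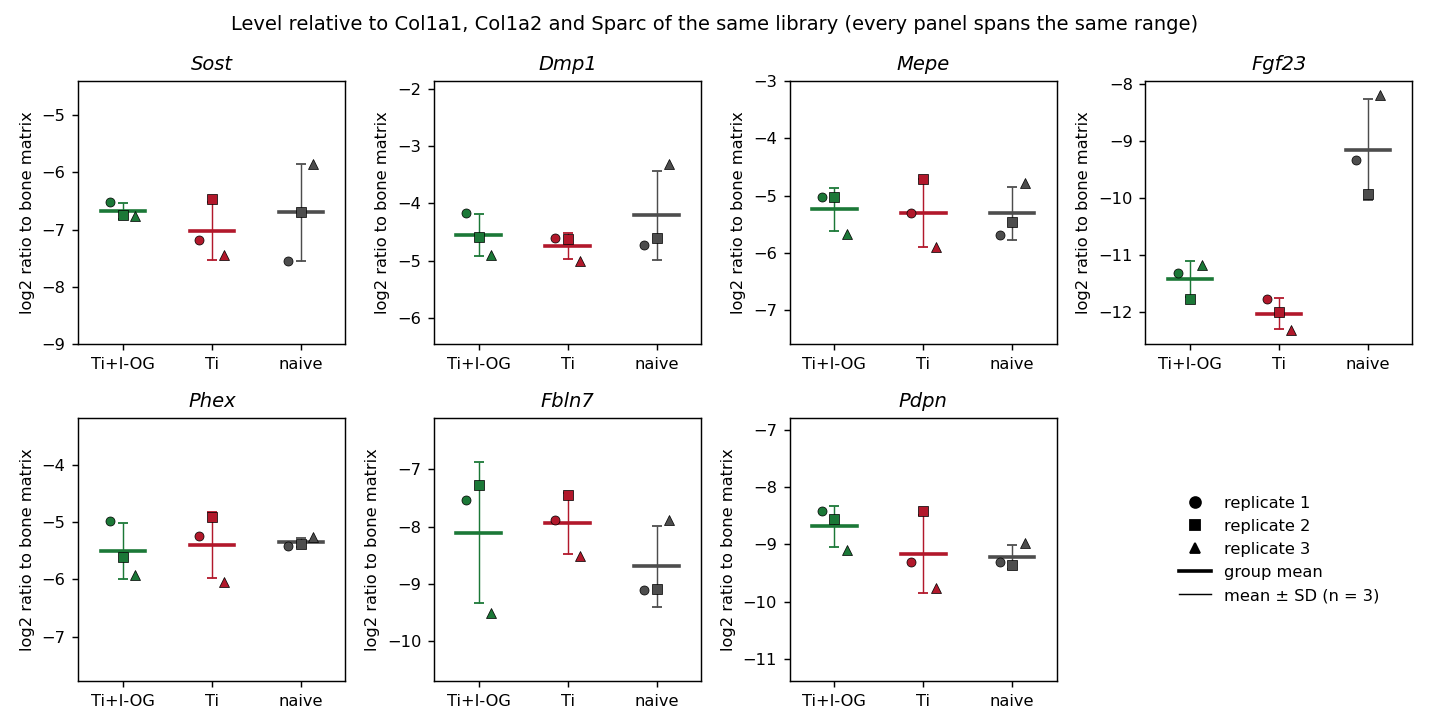
Log2 ratio of each of the 7 genes to the mean of Col1a1, Col1a2 and Sparc in the same library, with Ti+I-OG, Ti and naive from left to right; points are libraries, thick lines group means and error bars SD, and every panel spans the same range. The Fgf23 points of both treated groups lie below all naive points, and those of Sost, Dmp1, Mepe, Phex, Fbln7 and Pdpn overlap between Ti and naive.

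The members were also set against Dmp1 in the same library. The ratio of Fbln7 to Dmp1 was higher by 1.29 on the log2 scale in Ti than in naive tibiae and that of Fgf23 to Dmp1 lower (difference -2.33), both without overlap (exact permutation p = 0.1, adjusted p = 0.557). For Fgf23 this outcome was fixed in advance, as every Ti library had less Fgf23 and more Dmp1 than every naive one. The Fgf23 difference also holds the rise of Dmp1, and it was -3.25 with an offset of 0.1 CPM in place of 0.5 CPM. The differences for Sost (0.21), Mepe (0.55), Phex (0.50) and Pdpn (0.59) came with overlapping libraries (exact permutation p = 0.2 to 0.6). They depended on single libraries: with 1 left out, the difference was -0.01 (without Ti replicate 2) to 0.41 (without naive replicate 2) for Sost and 0.31 (without Ti replicate 2) to 0.71 (without Ti replicate 3) for Mepe. It was 0.09 (without naive replicate 3) to 0.72 (without naive replicate 1) for Phex and 0.26 (without naive replicate 3) to 0.79 (without naive replicate 1) for Pdpn. In naive replicate 3 Mepe, Phex and Pdpn were the lowest of the naive libraries, whereas Dmp1 was the highest.

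Genes that work with the members were read from 10 lists, and 19 of their 78 tested genes outside the 7 rose and 1 fell in Ti against naive. Between Ti+I-OG and Ti none of the 78 passed in edgeR, DESeq2, limma-voom or limma on log2(FPKM + 1), and 7 had an unadjusted p under 0.05. Among the SIBLING genes, Ibsp (bone sialoprotein, a mineral nucleator) rose in Ti, to 601 ± 122 CPM against 263 ± 57.2 in naive tibiae (SD, n = 3 each; log2 fold change 1.20, adjusted p = 0.0133). Spp1 (osteopontin), the neighbour of Mepe, had a log2 fold change of 0.96 that did not pass (adjusted p = 0.0742). Dspp, a dentin gene, had no counts in any library.

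Of 13 other osteocyte genes 5 rose in Ti and none fell. They were Dkk1 (another secreted Wnt inhibitor, log2 fold change 1.71), Ackr3 (a scavenger receptor for CXCL12, 1.61), Ptprz1 (a receptor phosphatase, 1.35), Irx5 (a homeobox factor, 1.16) and Fgfr1 (the FGF receptor that FGF23 uses with Klotho, 0.78). Of these, Ptprz1 passed in all 9 leave-one-out fits, while Irx5 passed in 3. On the receiving side of sclerostin, the co-receptors had log2 fold changes of -0.11 (Lrp4), -0.57 (Lrp5) and -0.15 (Lrp6), and Axin2, a feedback target of Wnt signalling, had -0.52; none of the 4 passed. In that list of 11 tested genes Dkk1 and Wnt16, a Wnt ligand of cortical bone, rose (log2 fold change of Wnt16 2.37, adjusted p = 0.0239). Wnt16 was at 1.23 ± 0.479 CPM in Ti and 0.231 ± 0.133 CPM in naive tibiae. All its naive libraries lay below the filter on low counts, so its place among the tested genes was not independent of its difference. The Wnt16 call held in 6 of 9 leave-one-out fits.

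Among 9 tested regulators of Sost, Sp7 (osterix, the osteoblast transcription factor) rose in Ti by a log2 fold change of 1.05 (adjusted p = 0.0304). Sik2, a kinase inhibited by parathyroid hormone signalling, fell by 0.81 (adjusted p = 0.0345). The calls held in 4 (Sp7) and 6 (Sik2) of 9 leave-one-out fits, and limma on log2(FPKM + 1) called 0 of this list. For FGF23 processing, Galnt3, which glycosylates and protects the hormone, had a log2 fold change of 0.14, Fam20c, the kinase that favours its cleavage, 0.36, and the protease Furin -0.64, and none passed. Pcsk5, another proprotein convertase, rose by 0.93 (adjusted p = 0.0467), a call that held in 1 of 9 leave-one-out fits. Kl, the Klotho co-receptor for FGF23, had no counts in Ti or naive libraries. A list of 10 genes known as inputs to Fgf23 held iron, inflammatory and hypoxia signals, among others. In Ti against naive 0 of them passed in edgeR, DESeq2, limma-voom or limma on log2(FPKM + 1), with 1 at an unadjusted p under 0.05. In Ti+I-OG against naive 0 passed in edgeR or limma-voom, 1 in DESeq2 and 2 in limma on log2(FPKM + 1). There 5 of the 10 had an unadjusted p under 0.05 in edgeR. Of 11 genes of phosphate and mineral handling 1 rose in Ti against naive, Alpl (tissue-nonspecific alkaline phosphatase, log2 fold change 1.12, adjusted p = 0.0183).

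The list for remodelling of the matrix around osteocytes held 6 enzymes, also made by osteoclasts, stroma or cartilage, and the TGF-beta receptor gene Tgfbr2. Of the 7 genes 5 rose in Ti and none fell; Tgfbr2 (log2 fold change 0.40, adjusted p = 0.0706) and Car2, a carbonic anhydrase (0.38, adjusted p = 0.295), did not pass. Ctsk (cathepsin K) rose to 738 ± 67.0 CPM in Ti against 241 ± 61.7 CPM in naive tibiae (SD, n = 3 each; log2 fold change 1.62, adjusted p = 0.00377). Mmp2 rose by a log2 fold change of 1.57, Acp5 (tartrate-resistant acid phosphatase) by 1.38, Mmp13 by 1.27 and Mmp14 by 0.73. Of these, Ctsk, Mmp2 and Acp5 passed in all 9 leave-one-out fits. Among 7 fibulins, Fbln7 rose with Fbln2 (log2 fold change 1.58), Efemp2 (1.07) and Fbln5 (0.82). Among 8 partners of podoplanin 1 rose, Ccl21a (log2 fold change 3.16), a chemokine with near-identical gene copies whose value is uncertain. Clec1b, the platelet receptor for podoplanin, had -0.61 and did not pass (adjusted p = 0.111). Values of Acp5, Axin2, Clec1b, Efemp2, Fgfr1, Furin, Sik2 and Spp1 are uncertain, since their exons overlap those of another gene; those of the 7 members do not.

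**Figure D4:**
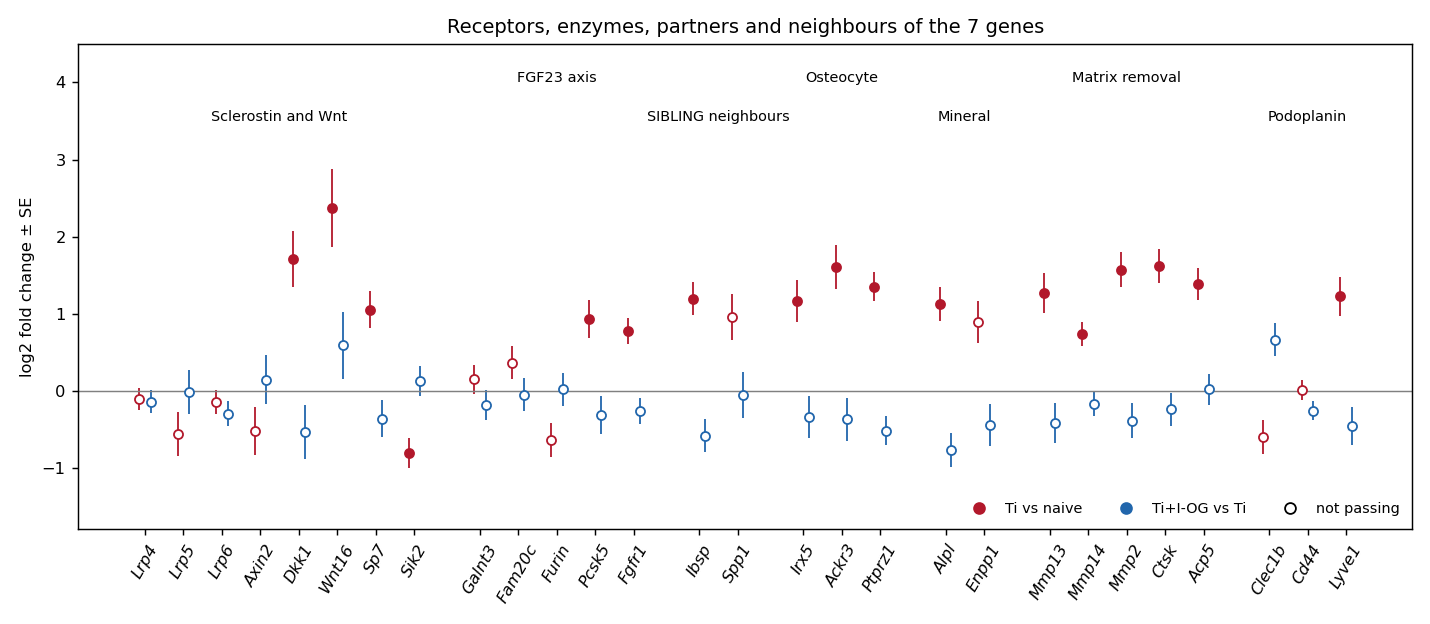
Log2 fold changes with SE bars, from edgeR's fit, of genes that work with the 7 members, grouped by role, in Ti vs naive (red) and Ti+I-OG vs Ti (blue); filled markers had an adjusted p under 0.05. Red markers of Dkk1, Wnt16, Ibsp, Ptprz1 and the 5 enzymes shown under matrix removal are filled above 0, those of Lrp4, Lrp5 and Lrp6 are open below 0, and no blue marker is filled.

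Markers of other cell types were read from 8 lists. In Ti against naive tibiae 11 of 18 osteoblast and bone matrix genes, 10 of 12 tendon and fibrous tissue genes, 3 of 10 chondrocyte genes, 2 of 12 muscle genes and 1 of 6 lymphatic endothelial genes rose. Of 12 neutrophil genes none rose and 1 fell (Prtn3, a granule protease, log2 fold change -1.35, adjusted p = 0.0265). The value of Prtn3 is uncertain, since its exons overlap those of another gene. In Ti against naive its call held in 5 of 9 leave-one-out fits. No erythroid gene of 11 and no B lineage gene of 12 passed there in edgeR, DESeq2, limma-voom or limma on log2(FPKM + 1), with 0 and 6 at an unadjusted p under 0.05. In Ti+I-OG against naive 8 of 12 tendon and fibrous tissue genes and 5 of 11 erythroid genes rose. So did 3 of 12 muscle genes, 2 of 18 osteoblast and bone matrix genes and 1 of 12 B lineage genes. No chondrocyte, lymphatic endothelial or neutrophil gene passed in that comparison. The erythroid count was 8 with DESeq2, 6 with limma-voom and 1 with limma on log2(FPKM + 1). Each of the 5 erythroid calls held in 2 to 4 of 9 leave-one-out fits. The summed level of the osteoblast list was 8093 to 9789 CPM in Ti+I-OG, 11753 to 13175 CPM in Ti and 2507 to 6008 CPM in naive tibiae, without overlap between groups. The tendon list was at 523 to 1019 CPM in Ti+I-OG, 747 to 1456 CPM in Ti and 216 to 244 CPM in naive tibiae. For podoplanin, the lymphatic list was at 81.0 to 138 CPM in Ti+I-OG, 79.4 to 115 CPM in Ti and 103 to 143 CPM in naive tibiae, and overlapped between all groups. Mmrn1, which megakaryocytes and platelets also make, carried most of that sum, with means of 68.5 CPM in Ti+I-OG, 58.8 CPM in Ti and 79.6 CPM in naive tibiae. Lyve1, which macrophages also express, was its 1 gene that rose (log2 fold change 1.22). The chondrocyte list was at 240 to 754 CPM in Ti+I-OG, 1077 to 1307 CPM in Ti and 212 to 547 CPM in naive tibiae, and the muscle list at 3858 to 6766 CPM in Ti+I-OG, 2573 to 9130 CPM in Ti and 1116 to 3281 CPM in naive tibiae. The erythroid list was at 169628 to 184063 CPM in Ti+I-OG, 70288 to 103332 CPM in Ti and 29944 to 96878 CPM in naive tibiae. The B lineage list was at 1041 to 2708 CPM in Ti+I-OG, 936 to 1308 CPM in Ti and 467 to 988 CPM in naive tibiae, and the neutrophil list at 30277 to 43593 CPM in Ti+I-OG, 34307 to 45321 CPM in Ti and 40066 to 53084 CPM in naive tibiae. None of these 8 lists had a marker at 0 in every library of a group. The part of these cell types in the members' changes was not tested. Total counts were 16256081 to 24766502 per library, and globin RNA took 15.1% to 15.9% of counts in Ti+I-OG, 6.68% to 9.98% in Ti and 2.95% to 9.47% in naive libraries.

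The genes whose levels followed each member most closely over the 9 libraries are given as a description, since all of them share libraries and group differences. Among 11987 candidate genes, Pearson's r of log2 CPM was highest for Pdpn with Cmtm3 (0.996), Cd276 (0.990) and Pcdhgc4 (0.989). For Phex these were Cdh11 (0.994), an osteoblast cadherin, Lhfp (0.989) and Sema3d (0.987), and for Mepe they were Ccdc80 (0.989), Plxdc2 (0.987) and Prg4 (0.987). Fbln7 was closest to Cilp (0.982), Atp6v1h (0.979) and Comp (0.975), and Cilp and Comp are proteins of cartilage and tendon matrix. Dmp1 was closest to Anxa5 (0.982), Tnc (0.951) and Myo1e (0.950), and Sost to Acta2 (0.981), Gstp2 (0.980) and Vwa1 (0.979). Fgf23, which rests on 1 to 8 counts in each treated library, was closest to Uvssa (0.957), Parp14 (0.951) and Gfod1 (0.948). Exon overlaps were looked up for members and list genes only, so not for most genes named here. The members themselves were not candidates.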

How the data were processed

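RNA of 9 mouse tibia libraries was prepared with oligo(dT) beads and a NEBNext Ultra kit, per the labels' protocols; that kit keeps no strand information, so reads of overlapping genes cannot be separated. Tools listed in the submitters' processing notes are edgeR, DESeq2, RSEM, StringTie 1.3.1 and fastp. Aligner, build and annotation: not given in the sources used here. The authors deposited estimated counts and FPKM per gene and library. Estimated counts were rounded here before testing.

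Groups came from sample titles. One edgeR 4.0.16 fit (R 4.3.3; TMM, filterByExpr, quasi-likelihood) on the 9 libraries, with 3 group means and 6 residual degrees of freedom, gave 3 contrasts and an F test, all two-sided. Benjamini-Hochberg adjustment covered 14211 genes, with a threshold of 0.05. The SE of a log2 fold change was taken from its F statistic, and CPM values use TMM library sizes. With 16256081 to 24766502 counts per library, 3 counts, the floor, equal 0.114 to 0.206 CPM. Counting error is all that floors and the intervals of pooled count ratios describe, and PCR copies are not independent. No library was a copy of another: replicates of a group differed by a chi-square of 12.9 to 132 per degree of freedom. Ratios used log2(CPM + 0.5) and exact permutation tests.

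Alternatives were DESeq2 1.42.0, limma 3.58.1 (voom, and trend on FPKM values plus 1 or 0.1), other normalisation, filters and samples, a transcript length correction, a replicate block and leaving out each library. The rule for named genes took all 7 members, list genes that passed in Ti vs naive or Ti+I-OG vs Ti, set partners of a member, and for each member the 3 genes of mean FPKM at least 1 with the highest r. The members and lists were chosen with earlier results of these data known. Sequences are RefSeq's (GRCm38.p6); exon overlaps came from a GENCODE annotation, used for that alone.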

Additional observations from a re-analysis of the deposited data

How the results depend on the processing

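In the titanium comparison the 6 rises and the fall kept their direction in every setting tried. The number of the 7 genes passing was 7 in the reported fit, 2 (Dmp1 and Mepe) with limma on log2(FPKM + 1) without a filter, where the others had adjusted p = 0.0532 to 0.0722, 6 with only the 2 groups in the fit (Fgf23 lost, adjusted p = 0.0526), and 3 to 7 when 1 library was left out. Genes passing numbered 914 of all tested, 1859 with DESeq2, 556 with log2(FPKM + 1), 544 with log2(FPKM + 0.1), 127 without a filter on FPKM, 357 with only the 2 groups, and 100 to 1999 with 1 library left out. In Ti+I-OG vs Ti it was 6, 16 with DESeq2, 2 without a filter on FPKM and 0 to 6 with 1 library left out. There 0 of the 7 genes passed in any setting, but with only the 2 groups Fgf23 was filtered out and not tested. In Ti+I-OG vs naive 5 of the 7 passed, 3 without a filter on FPKM and 0 to 6 with 1 library left out. There 1174 genes passed in all, 2440 with DESeq2, 1787 with log2(FPKM + 1), 1853 with log2(FPKM + 0.1), 770 with only the 2 groups, 348 with a transcript length correction, and 59 to 2119 with 1 library left out. Of the 1174, 545 were higher and 629 lower; with log2(FPKM + 1), 290 were higher and 1497 lower. The cause of these shifts was not tested, other than that fewer libraries entered some fits.

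In Ti+I-OG vs Ti the log2 fold change of Fgf23 was -0.042 with log2(FPKM + 0.1) and ranged over -1.06 (without Ti+I-OG replicate 3) to 0.86 with 1 library left out, negative also without Ti replicate 2 (-0.19). That of Pdpn ranged over -0.36 to 0.15 (without Ti replicate 2). None of these passed the threshold. With an offset of 0.1 CPM in place of 0.5 the Ti minus naive ratio of Fgf23 was -3.78 to bone matrix and -3.25 to Dmp1.

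With the replicate number as a block, 2968 genes passed in Ti vs naive, 9 in Ti+I-OG vs Ti and 3450 in Ti+I-OG vs naive, and of the 7 genes 7, 0 and 7. Deviations of same-numbered libraries correlated between -0.03 (Ti and naive, replicate 1) and 0.29 (Ti and naive, replicate 2). Differently numbered libraries were not set beside them, so these values cannot decide whether samples were paired. Of the 45 list genes called in Ti vs naive, 14 passed in every fit with 1 library left out; running the lists, and the matrix ratios, under these settings was decided after seeing the data. Fgf23 rests on 1 to 8 counts in each treated library.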
